A study of Mus musculus with 12 samples.

Results

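The clustered core histone genes make the bulk of the H2A, H2B, H3 and H4 that package newly copied DNA. They were taken as every gene symbol in the deposited germ cell tables that begins with Hist1h2, Hist1h3, Hist1h4, Hist2h, Hist3h or Hist4h, which gave 62 of 22552 symbols. Of these, 18 code for H2A, 19 for H2B, 12 for H3 and 13 for H4, and 48 belong to the Hist1 set, 10 to Hist2, 3 to Hist3 and 1 to Hist4. Total RNA was sequenced from male germ cells of F1 mice of DBA/2 and C57BL6, all without any genetic change or treatment given in the labels, separated freshly from testes by STAPUT, a sedimentation method that sorts cells by size. There were 2 libraries each of primitive type A spermatogonia (priSG-A, 7 days postpartum), preleptotene spermatocytes (plpSC, 17 days), pachytene spermatocytes (pacSC, 17 days) and round spermatids (rST, 60 days). Stage and age cannot be told apart except between plpSC and pacSC. The labels do not say that the 2 libraries of a stage came from separate animals, and the p-values therefore cover only the spread between libraries, which may be technical. Lists of circular RNAs from cultured spermatogonial stem cells (5 days), 2 libraries digested with RNase R and 2 not digested, were used for 1 count at the end.

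Most clustered histone genes are replication-dependent: they are transcribed in S phase under NPAT at histone locus bodies, and their mRNAs end in a conserved stem-loop bound by SLBP in place of a poly(A) tail. Type A spermatogonia divide by mitosis and preleptotene spermatocytes carry out the last DNA replication before meiosis, whereas pachytene spermatocytes and round spermatids do not replicate their genomes. Spermatogenic cells also make testis forms, among them TH2B (gene Hist1h2ba) and TH2A (gene Hist1h2aa), which lie side by side at the end of the Hist1 cluster and are known to enter chromatin around meiosis.

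The stretch before the TH2B start, which lies between the TH2A and TH2B genes, is shown first, next to the promoters of the highest somatic H2B gene and of Hist2h2aa1, the one member that the F test over the 4 stages did not call. Hist1h2ba lies at chr13:24025642-24026025 and Hist1h2aa at chr13:24026331-24026720 in mm9, the build of the files, with 305 bases between them and opposite directions of transcription. The sequences are from RefSeq (GRCm38.p6), read 5′ to 3′ towards each gene. Of each window of 300 bases only the 250 bases up to the annotated start are printed. For Hist1h2ba, whose model begins at its coding sequence, the print is cut earlier, at base 186. That cut was placed by the TATA box, so the print does not reach the annotated start. Capitals mark 3 promoter elements searched on both strands. The TATA box was read as TATAAA. The second is named by its letters, CCAAT. The octamer, known from histone promoters, was read as ATTTGCAT, and no element overlaps another in these sequences.
Hist1h2ba, chr13:23934221-23934406, minus strand: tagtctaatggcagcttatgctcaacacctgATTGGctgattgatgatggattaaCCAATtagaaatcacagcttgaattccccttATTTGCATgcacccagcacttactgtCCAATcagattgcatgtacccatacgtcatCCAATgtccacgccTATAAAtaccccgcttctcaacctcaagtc
Hist1h2bn, chr13:21753826-21754075, plus strand: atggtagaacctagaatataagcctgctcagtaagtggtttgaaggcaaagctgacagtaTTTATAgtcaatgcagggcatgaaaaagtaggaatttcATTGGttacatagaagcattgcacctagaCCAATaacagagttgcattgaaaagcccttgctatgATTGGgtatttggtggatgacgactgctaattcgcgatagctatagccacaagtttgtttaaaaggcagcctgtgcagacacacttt
Hist2h2aa1, chr3:96245247-96245496, plus strand: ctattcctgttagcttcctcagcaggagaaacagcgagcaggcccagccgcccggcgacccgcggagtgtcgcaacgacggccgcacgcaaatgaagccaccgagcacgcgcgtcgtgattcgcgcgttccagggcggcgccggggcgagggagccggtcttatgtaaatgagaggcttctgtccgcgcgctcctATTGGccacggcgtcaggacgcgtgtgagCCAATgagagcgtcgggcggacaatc
The printed Hist1h2ba bases held 4 CCAAT boxes, 1 octamer and 1 TATA box, which begins at base 157 of 186, position -94 from the annotated start. Those of Hist1h2bn held 3 CCAAT boxes and 1 TATA match. That match reads TTTATA, the box on the opposite strand, and begins at base 61 of 250. Those of Hist2h2aa1 held 2 CCAAT boxes, while its full window also held a TATA match past the annotated start, counted among those that follow.

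Promoter windows of 300 bases were matched for 55 of the 62 members, 1 for each. Matches were counted on either strand of the whole window, bases past the annotated start included. A TATA box stood in 31 of the 55 windows and in 13.6% of all 32851 mouse promoter windows of that length. CCAAT stood in 46 of the 55, in every H2A (17), H2B (16) and H3 (10) window but in 3 of the 12 H4 windows, against 37.4% of all windows. The octamer was found in 13, made up of 7 H2A and 6 H2B windows, against 1.74% of all windows. In 9 H2A-H2B pairs the 2 windows overlap, by 220 to 279 bases. An element in the overlap was counted for both genes, so the 55 windows are not separate stretches. For Hist1h2be, which has 2 windows in the table, the first was used, and the other one does hold the octamer. All 3 elements occurred before the TH2B gene as well as before somatic H2A or H2B genes, and a match is a description, not a site of binding. The histone stem-loop, searched in the GENCODE M21 transcripts, was present in 42 of the 62 members and in 0.428% of all 141767 transcripts. It is shown for 4 genes, with the stem and loop in capitals.
Hist1h2ao: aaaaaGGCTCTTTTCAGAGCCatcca
Hist2h2aa1: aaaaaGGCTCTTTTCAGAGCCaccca
Hist2h2ac: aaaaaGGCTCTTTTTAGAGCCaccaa
Hist1h4m: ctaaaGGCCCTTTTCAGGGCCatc
Hist1h2ao, whose mRNA fell, and Hist2h2aa1, whose mRNA stayed high, thus carried the same core. Of the 20 members without a match, 13 have transcript models under 420 bases, among them Hist1h2ba (384 bases) and Hist1h2aa (390 bases), and a missing match says only that the letters are not in the model.

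Levels are FPKM, fragments per kilobase of gene model scaled to the mapped fragments of the library, as the authors deposited them. Whether poly(A) RNA was selected is not given. If it was, mRNAs that end in the stem-loop would be undercounted, and levels, sums and shares would not be those of all histone mRNA. The confidence bounds of the files gave between 23520448 and 34923958 effective fragments per library, and the members took 0.957% and 1.10% of them in priSG-A, 0.416% and 1.00% in plpSC, 0.403% and 0.333% in pacSC, with 0.127% and 0.0872% in rST. A level of 1 FPKM or more was reached in 2 or more libraries by 59 members, the filter for all tests, and in all 8 libraries by 55. The remaining 3, Hist1h2ap, Hist2h2aa2 and Hist1h2bq, stayed at or below 3.59e-05, 7.04e-06 and 0.0103 FPKM. Each shares its locus or sequence with a neighbour that is counted (Hist1h2ao, Hist2h2aa1 and Hist1h2br), and across all members a median of 49.6% of 50-base windows also occurs in another member, so values of near-identical copies are uncertain. That share was 38.2% for Hist1h2ba, 2.35% for Hist1h2aa and 89.2% for Hist2h2aa1.

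The labels were compared with marker genes. Of 6 spermatogonial markers, 5 were highest in priSG-A (Zbtb16, 16.5 and 13.8 FPKM there and at most 2.57 elsewhere), and Id4 was not, at 6.05 and 5.25 FPKM against 30.4 and 26.8 in pacSC. In priSG-A, Sertoli cell markers were also high (5 of 6 listed genes measured, summed FPKM 1022 and 1069, against 17.2 to 202 in the other libraries). In plpSC, Stra8, the gene that marks entry into meiosis, stood at 43.9 and 100.4 FPKM, below 165.9 and 145.2 in priSG-A, and the summed pachytene markers (Piwil1, Pou5f2, Ldhc, Adam3, Ccna1) reached 2516 and 1042, a range that overlaps that of pacSC (2475 and 2055). The plpSC markers were mixed. In the list of 5 differentiating and preleptotene markers, Dmrtb1 (20.0 and 16.4 FPKM in priSG-A, 185.4 and 84.2 in plpSC, adjusted p = 0.000593) and Rec8 (11.03 and 11.7 against 35.3 and 17.3, adjusted p = 0.0481) rose from priSG-A to plpSC. The other 3 fell: Stra8, Kit (14.5 and 13.5 against 3.33 and 8.34) and Sohlh1 (41.6 and 39.2 against 3.29 and 6.17). Both genes that rose were also high in rST (Dmrtb1 at 162.6 and 157.1 FPKM, Rec8 at 39.1 and 41.7). The pachytene sum was mostly Ldhc (1943 and 803 FPKM in plpSC), which was as high in rST (1985 and 1917), while Piwil1 read 29.7 and 25.1 FPKM in plpSC against 103.5 and 108.4 in pacSC. Stromal markers (121 and 440 summed FPKM) and erythroid markers (197 and 405) were also highest in plpSC. Round spermatid markers summed to 5141 in pacSC replicate 2 and 373.4 in replicate 1, against 33086 and 37987 in rST, and Leydig cell markers to 679 in pacSC replicate 2, against 36.2 to 200.4 in the other libraries. The part of these other cells in the results below was not tested. In bulk RNA, fewer cells of a type and less RNA per cell cannot be told apart.

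Clustered histone mRNA, as measured here, was highest in spermatogonia, dropped to plpSC and again to pacSC, and stayed low in rST. Of the 59 members above the filter, 52 had their highest stage mean in priSG-A, 3 in plpSC (Hist1h2aa, Hist1h4c, Hist1h4i) and 4 in pacSC (Hist1h2ba, Hist2h2aa1, Hist2h2ab, Hist2h2be), with none in rST. Leaving out the testis forms and pseudogenes, the median over members of the stage mean went from 281.6 FPKM (priSG-A) to 107.5 (plpSC), 22.1 (pacSC) and 16.1 (rST). Summed over the same genes, H4 stood at 9184 ± 374.4 FPKM (mean ± SD, n = 2 throughout) in priSG-A, then 6427 ± 3208 (plpSC), 1312 ± 584.6 (pacSC) and 840.6 ± 207.7 (rST). The H2B sum went from 6454 ± 210.4 to 3026 ± 1492, 387 ± 155 and 429.2 ± 60.5, and the H3 sum from 2189 ± 77.5 to 527.3 ± 182.7, 160.5 ± 54.9 and 88.3 ± 7.54. The H2A sum, which holds Hist2h2aa1, went from 4438 ± 294.8 to 2095 ± 713.5, 1227 ± 40.1 and 664.4 ± 157.8. The map of levels by library shows this drop in nearly every row.

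**Figure D1:**
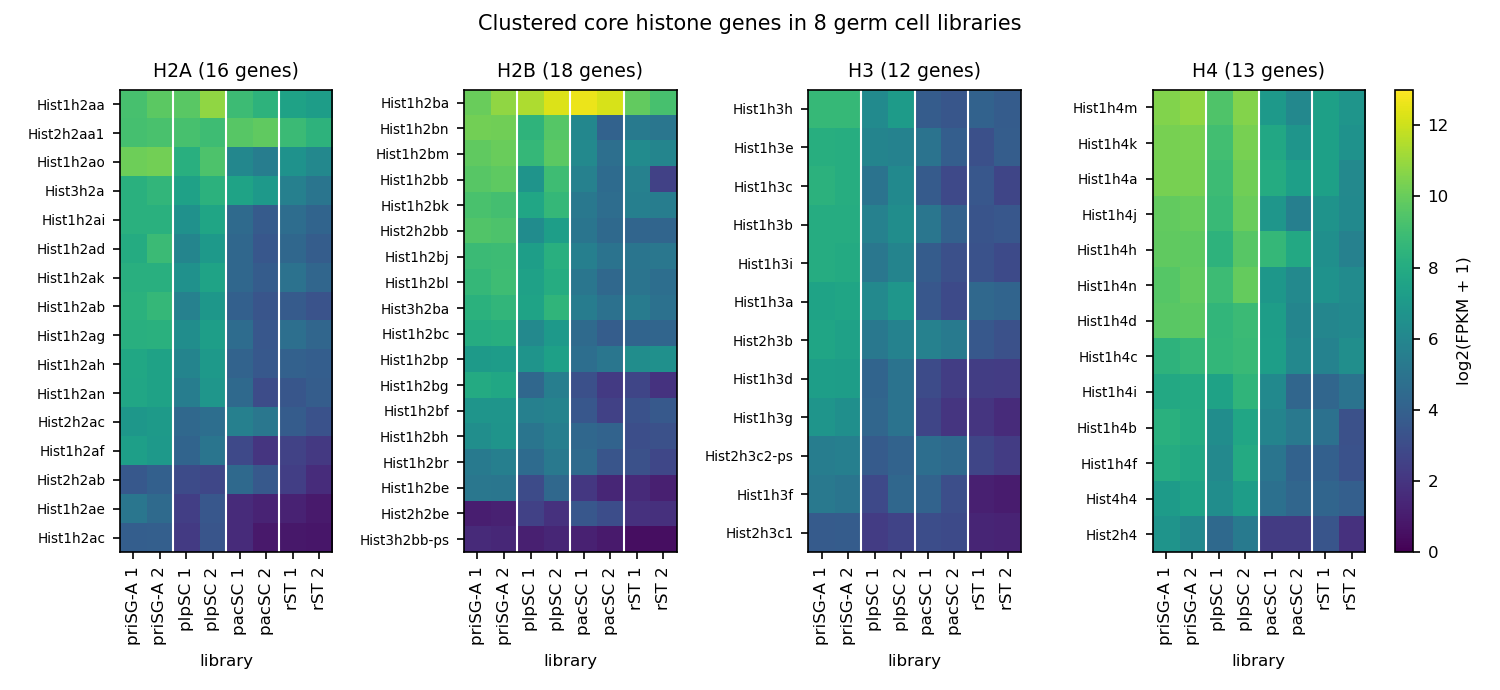
Log2(FPKM + 1) of the 59 members above the filter (rows, by family and then by mean level) in the 8 libraries (columns, 2 per stage, stages parted by white lines). Most rows are bright in priSG-A and dark in pacSC and rST, while Hist1h2ba is brightest in plpSC and pacSC and Hist2h2aa1 stays near its priSG-A level.

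Changes were tested with limma on log2(FPKM + 1), with p-values adjusted (Benjamini-Hochberg) over all 14111 genes that passed the filter and calls at an adjusted p under 0.05. Comparing priSG-A and plpSC with pacSC and rST, 55 of the 59 members were lower, against 52.7% of all genes, and 1 was higher (Hist2h2be), against 27.2%. The median log2 change of the members was -3.08, and that of all genes -0.48. In 47 of the 59 members all 4 later libraries lay below all 4 earlier ones, which held for 32% of all genes, and in none did they all lie above, against 2.19% of all genes. Centring each library on its median shifted the median of all genes to 0.04 and their calls to 5462 higher and 4884 lower, from 3839 and 7440, while 54 members stayed lower and 1 higher. Leaving out both plpSC libraries, whose markers were mixed (a fit chosen after the data were seen), again gave 55 lower, against 55.9% of all genes, and 1 higher, against 31.8%, with a member median of -3.62. Every H3 gene (12) and every H4 gene (13) was lower, as were 14 of 16 H2A and 16 of 18 H2B genes. An F test over the 4 stages called 58 of the 59 members, against 88.5% of all genes, the exception being Hist2h2aa1 (adjusted p = 0.0557).

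The highest members of each family show the size of the fall. Hist1h4m, the highest H4 gene, read 1505 and 1819 FPKM in priSG-A, followed by 677.2 and 1540 in plpSC, 126 and 67.2 in pacSC, with 165.1 and 109.9 in rST. All libraries of the 2 later stages were below all earlier ones, a fall of 3.53 on the log2 scale (SE 0.34, adjusted p = 9.49e-05). Hist1h2bn, an H2B gene with the largest fall of all members, went from 1197 and 1163 through 347.4 and 761.6 to 64.6 and 16.2 FPKM in pacSC, with 38.5 and 33.04 in rST. Its log2 change was -4.47 (SE 0.43, adjusted p = 9.51e-05), or 22.2-fold. Hist1h3h, the highest H3 gene, read 417.6 and 422.2 in priSG-A, 73.6 and 141.3 in plpSC, 12.7 and 10.3 in pacSC, with 16.0 and 12.5 in rST (log2 change -3.92, SE 0.23, adjusted p = 5.42e-05). For Hist1h2ao, the highest somatic H2A gene of the Hist1 set, the 8 values were 1128 and 1212, 295.7 and 655.4, 63.8 and 45.4, then 99.2 and 65.6 (log2 change -3.43, SE 0.30, adjusted p = 7.33e-05). In each of these 4 genes the stages before and after did not overlap. Hist1h2bb, with the second largest fall (log2 change -4.16), differed between its rST libraries, at 51.7 and 4.75 FPKM. Among the other highly expressed members the log2 change was -3.80 for Hist1h2bm, -3.00 for Hist1h3e, -3.67 for Hist1h3c, -2.89 for Hist1h4k and -2.73 for Hist1h4a, with adjusted p-values up to 0.000426.

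TH2B took another course. Hist1h2ba had 1045 and 1818 FPKM in priSG-A, 2685 and 5121 in plpSC, 6281 and 4690 in pacSC, with 942.7 and 583.9 in rST. It was thus already abundant in spermatogonia, highest in plpSC and pacSC, whose ranges overlap, and lowest in rST, whose 2 values lay below both of priSG-A. The rise from priSG-A to plpSC was 1.43 on the log2 scale (SE 0.54, adjusted p = 0.0488), close to the threshold. It was not called with a pseudocount of 0.1 (adjusted p = 0.0518), with the replicate block (0.0589) or with no filter on low values. Nor was it called with only the libraries compared or when any 1 of 5 libraries was left out. From plpSC to pacSC the change was 0.55 (SE 0.54, adjusted p = 0.494), which quantile normalization made 1.42 (adjusted p = 0.0436), and to rST it fell by 2.87 (SE 0.54, adjusted p = 0.00889), or 7.31-fold, which was not called without rST replicate 2 (log2 change -2.52, adjusted p = 0.0889) or with no filter on low values (adjusted p = 0.0521). Between the earlier and later pairs of stages the change was -0.17 (SE 0.38, adjusted p = 0.69), of either sign depending on the scaling and on the libraries kept.

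TH2A had its highest stage mean in plpSC. Hist1h2aa had 604.4 and 847.9 FPKM in priSG-A, 806.6 and 1837 in plpSC, 485.1 and 341.4 in pacSC, with 179.5 and 148.8 in rST. Its priSG-A and plpSC values overlap, both pacSC values lie below them, and both rST values are lower still. The change to plpSC was 0.77 (SE 0.45, adjusted p = 0.164), the fall to pacSC 1.58 (SE 0.45, adjusted p = 0.0386), and between the earlier and later pairs of stages it fell by 1.85 (SE 0.32, adjusted p = 0.000997). The fall to pacSC was not called when any 1 of 7 libraries was left out (adjusted p up to 0.132), nor with quantile normalization, centring, no filter, the replicate block or only the libraries compared (adjusted p up to 0.266), whereas that between pairs of stages was called under all 15 alternatives. The ratio of Hist1h2ba to Hist1h2aa within a library was 1.73 and 2.14 in priSG-A, 3.33 and 2.79 in plpSC, 12.9 and 13.7 in pacSC, with 5.25 and 3.92 in rST, so the neighbours were furthest apart in pacSC. Of the 9 H2A-H2B pairs with overlapping promoter windows, 8 had both genes above the filter. In 7 of these both genes fell between the earlier and later pairs of stages, and their log2 changes differed by 0.0661 to 1.79 (median 0.41), against 1.68 between Hist1h2aa and Hist1h2ba. The widest gap was that of Hist1h2an and Hist1h2bp, so the TH2A and TH2B pair was not the extreme one.

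**Figure D2:**
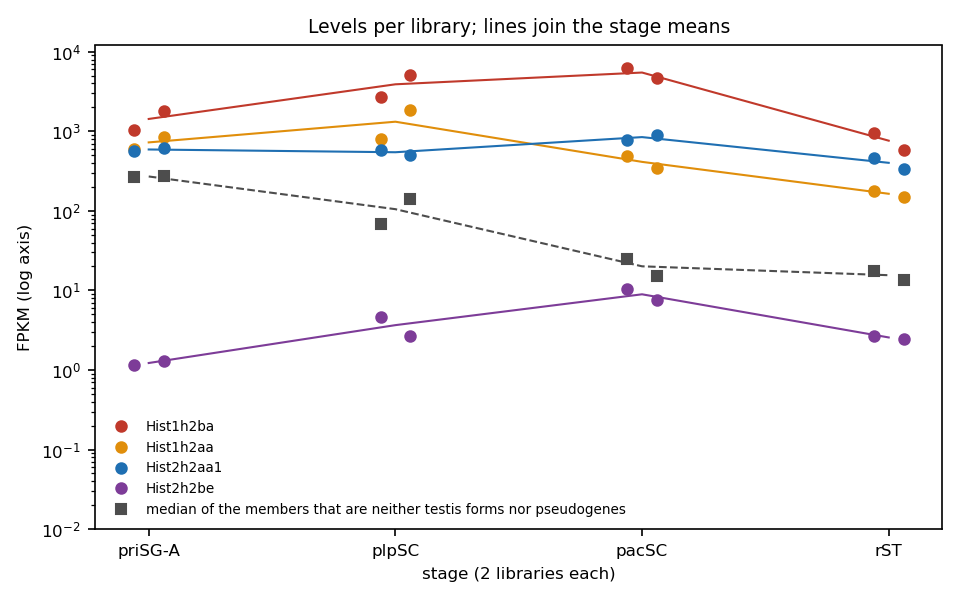
FPKM (log axis) in each library (points) of Hist1h2ba, Hist1h2aa, Hist2h2aa1 and Hist2h2be, with squares for the median of the members that are neither testis forms nor pseudogenes. Lines join stage means, and the squares drop from 264.9 and 276.9 in priSG-A to 17.6 and 13.5 in rST. Hist1h2ba has its highest stage mean in pacSC, where its values overlap those of plpSC.

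Within H2B, TH2B took most of the measured mRNA from plpSC on. Hist1h2ba made up 14.2% and 21.6% of the summed FPKM of clustered H2B genes in priSG-A, 57.6% and 55.6% in plpSC, 92.7% and 94.4% in pacSC, with 66.6% and 60.2% in rST. These shares do not depend on scaling between libraries. The 4 stages do not overlap, and no test of the shares was run. Among H2A, Hist1h2aa took 12.5% and 15.4%, then 33.7% and 41.4%, 27.9% and 22.2%, and 18.8% and 21.2%. The larger H2A share in late stages was that of Hist2h2aa1, a replication-dependent H2A gene, at 11.7% and 11.2% in priSG-A, 24.5% and 11.4% in plpSC, 45.4% and 58.7% in pacSC, with 49.0% and 47.9% in rST.

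**Figure D3:**
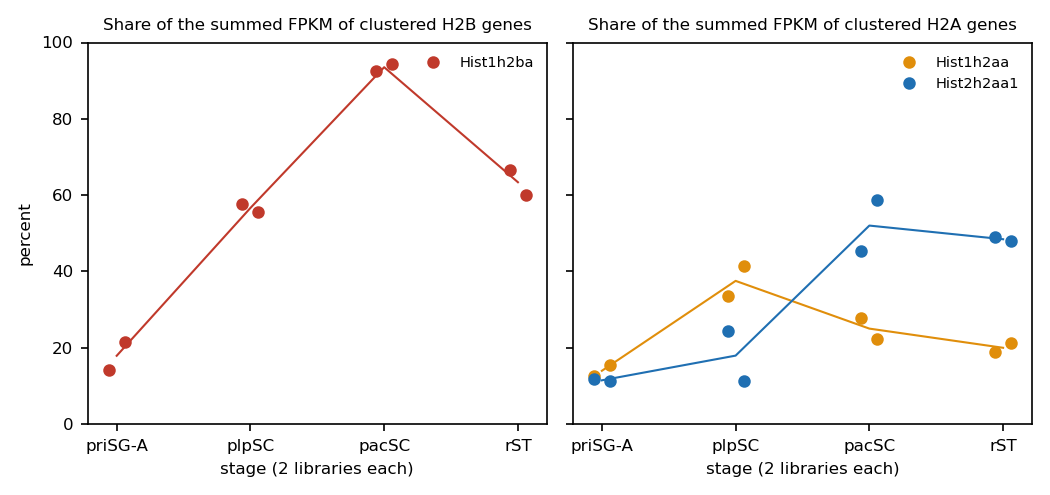
Percent of the summed FPKM of clustered H2B genes from Hist1h2ba (left) and of clustered H2A genes from Hist1h2aa and Hist2h2aa1 (right), one point per library, lines through stage means. Hist1h2ba exceeds 92% in both pacSC libraries, and Hist2h2aa1 passes Hist1h2aa from pacSC on.

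The H3 and H4 genes parted at the first step. From priSG-A to plpSC, 34 of the 59 members fell, against 41.3% of all genes, and 2 rose (Hist1h2ba and Hist2h2be), against 24.4%. The falls took in all 12 H3 genes, with a median log2 change of -2.01, but 1 of 13 H4 genes (Hist2h4), with a median of -0.70. H2A had 12 of 16 lower and H2B 9 of 18. Hist1h2bg, an H2B gene, fell most, from 244.6 and 215.1 to 19.3 and 46.0 FPKM (log2 change -2.90, SE 0.49, adjusted p = 0.00171). Hist1h3d went from 156.2 and 148.7 to 17.5 and 29.7 FPKM (log2 change -2.68, SE 0.30, adjusted p = 0.000311), and Hist1h3c, also H3, fell by 2.65. By contrast Hist1h4k had 1286 and 1341 FPKM in priSG-A and 537.4 and 1280 in plpSC (log2 change -0.66, SE 0.52, adjusted p = 0.283). The summed H3 over summed H4 FPKM within a library was 0.252 and 0.226 in priSG-A, 0.0957 and 0.0755 in plpSC, 0.116 and 0.135 in pacSC, with 0.0948 and 0.120 in rST. Both priSG-A values lie above all others, and the difference between the families was not tested. In 45 members both plpSC libraries lay below both of priSG-A, against 53% of all genes, and in 2 above, against 33.1%. Quantile normalization left 27 falls (45.8% of members, against 42.3% of all genes), and centring left 25 (42.4% against 35%). Replicate spread was wide in plpSC: 55 of the 59 members were higher in replicate 2 than in replicate 1, with a median ratio of 1.92 (1.13 over all genes). The count of falls was 19 without priSG-A replicate 1 (32.2% of members, against 28% of all genes), 18 without priSG-A replicate 2 (30.5% against 29.1%) and 18 without plpSC replicate 1 (30.5% against 37.8%), so in these fits the members' share was close to or below that of all genes.

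**Figure D4:**
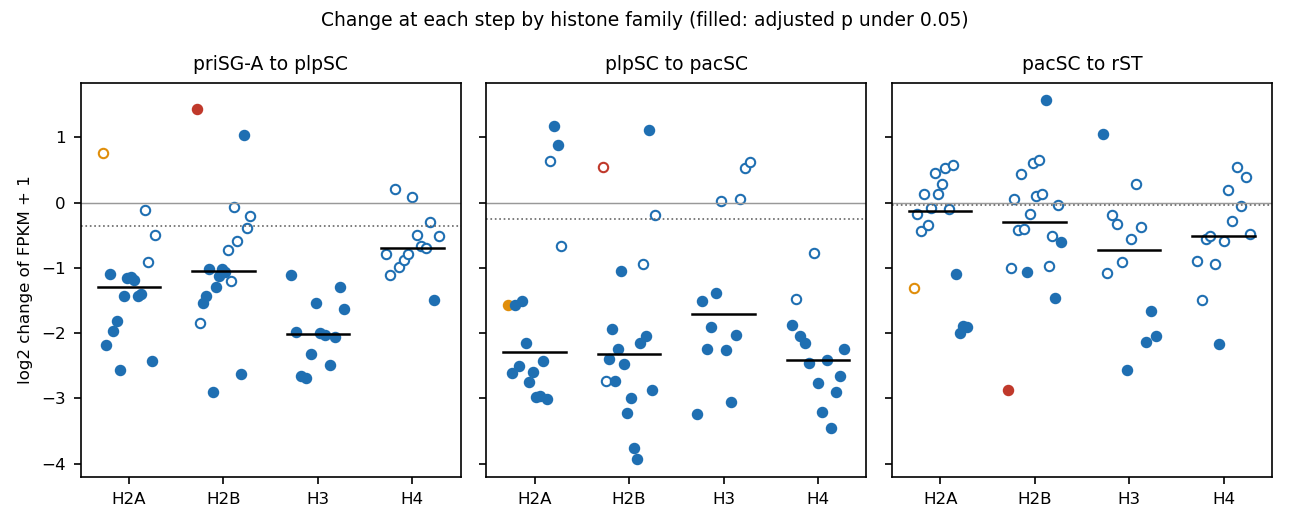
Log2 change of FPKM + 1 at each step for the members above the filter, by family (red Hist1h2ba, orange Hist1h2aa, blue all others, filled where the adjusted p is under 0.05, black bars the family median, dotted line the median of all genes). At the first step all 12 H3 genes are filled and negative while 12 of 13 H4 genes are open.

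Most members fell at the step to pachytene. From plpSC to pacSC, 44 of the 59 members were lower, against 21.6% of all genes, and 3 were higher (Hist2h2ab, Hist2h2be and Hist2h2ac), against 4.22%. The member median was -2.24, and that of all genes -0.25. Hist1h2bn fell most, with a log2 change of -3.94 (SE 0.61, adjusted p = 0.00935), followed by Hist1h2bm at -3.77 (SE 0.50, adjusted p = 0.00734) and Hist1h4m at -3.46 (SE 0.48, adjusted p = 0.0078). In 47 members both pacSC libraries lay below both plpSC libraries, against 42.7% of all genes, and in 6 above, against 14.1%. Quantile normalization moved the calls over all genes to 1243 higher and 1083 lower, from 596 and 3050, and those of members to 4 and 36. Libraries of pacSC also differed, with 57 of 59 members higher in replicate 1 (median ratio 1.63, against 1.02 over all genes), and without pacSC replicate 2, the library rich in round spermatid mRNA, 26 falls were called (44.1% of members, against 7.24% of all genes).

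Genes of the Hist2 set on chromosome 3 differed from those of the Hist1 set on chromosome 13 at this step by the counts and medians that follow, a grouping chosen after the values were seen and a difference that was not tested. Of 46 Hist1 genes, 40 fell and none rose (0 also at an unadjusted limma p under 0.05), with a median log2 change of -2.40. Of the 9 Hist2 genes, 2 fell (Hist2h2bb and Hist2h4), 3 rose, and 7 had a change above 0, with a median of 0.62. Hist2h2be, an H2B gene with a long transcript model (2620 bases), had 1.16 and 1.29 FPKM in priSG-A, 4.69 and 2.64 in plpSC, 10.4 and 7.52 in pacSC, with 2.68 and 2.45 in rST. It rose at both early steps, by 1.03 (SE 0.27, adjusted p = 0.0108) and 1.11 (SE 0.27, adjusted p = 0.0242), calls that were lost when either priSG-A library and any 1 of 6 libraries, respectively, was left out. It fell by 1.47 to rST (SE 0.27, adjusted p = 0.00801). Its mean over pacSC and rST was above that over priSG-A and plpSC (log2 change 0.90, SE 0.19, adjusted p = 0.00284), which was called under all 15 alternatives. The earlier and later libraries overlap, and its rST mean (2.56 FPKM) was below its plpSC mean (3.66). Its neighbour Hist2h2ac, an H2A gene, had 115 and 133.7 FPKM in priSG-A, 19.9 and 24.8 in plpSC, 49.8 and 35.2 in pacSC, with 12.8 and 8.68 in rST. The dip in plpSC and the rebound in pacSC do not overlap, but the rise of 0.89 (SE 0.27, adjusted p = 0.0487) was not called when any 1 of the 8 libraries was left out. Hist2h2ab, the third gene of that stretch, read 10.99 and 14.8, 6.76 and 5.83, 20.97 and 11.3, and 4.31 and 2.17 FPKM, a rise of 1.18 to pacSC (SE 0.36, adjusted p = 0.048) that was not called when any 1 of 7 libraries was left out. All 3 lie within chr3:96023839-96027661 (mm9). With libraries centred on their median, 5 members rose at this step, and with only the plpSC and pacSC libraries in the fit none did by limma (3 at an unadjusted p under 0.05).

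Hist2h2aa1 was the only member that the F test did not call. It had 567 and 616.2 FPKM in priSG-A, 587.3 and 505 in plpSC, 789.6 and 903.7 in pacSC, with 467.9 and 336.2 in rST. The first 2 stages overlap, both pacSC values are above them, and both rST values are below all others. The change to pacSC of 0.63 (SE 0.31) had an adjusted p of 0.17, and the fall to rST was 1.09 (SE 0.31, adjusted p = 0.0297). That fall was not called with no filter on low values, with libraries centred on their median or when any 1 of 6 libraries was left out. Of the 5 members most like Hist1h2ba over the 8 libraries (Pearson r of log2 values, a description over libraries that share their stages), Hist2h2aa1 was the closest at 0.76, followed by Hist2h2be (0.68), Hist2h2ab (0.62), Hist1h2aa (0.60) and Hist3h2a (0.54). Hist3h2a, an H2A gene of the Hist3 set, was called only at the last step (log2 change -1.90, adjusted p = 0.0106), with 309 and 375.6, 174.2 and 331.7, 185.6 and 123.5, then 49.0 and 32.2 FPKM.

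**Figure D5:**
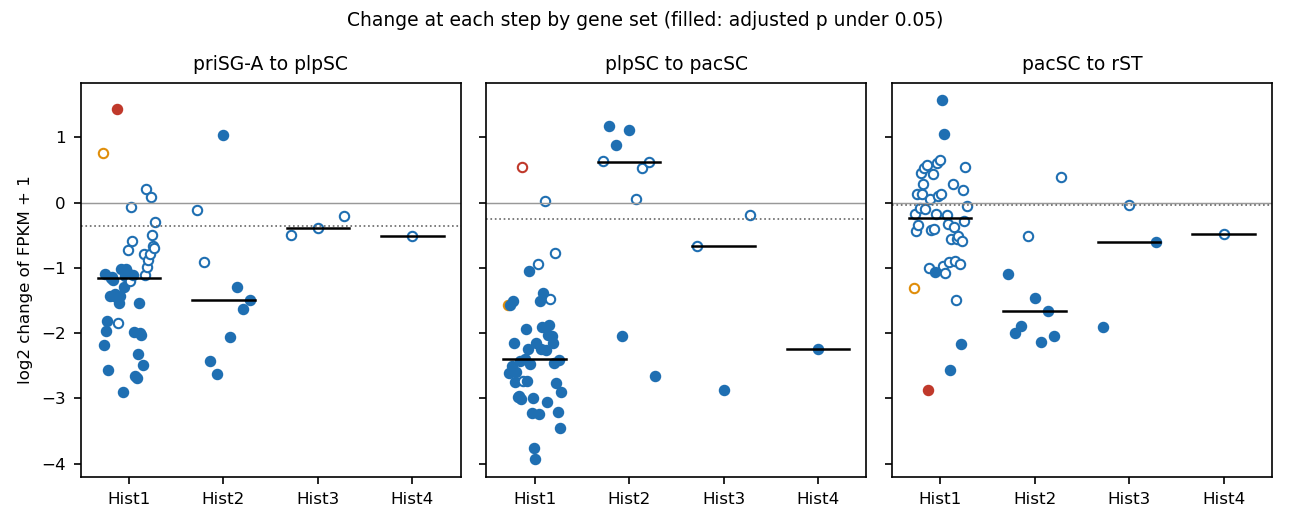
The same log2 changes by gene set (Hist1, Hist2, Hist3, Hist4; colours, fill and lines as in the plot by family). From plpSC to pacSC the Hist1 median is -2.40 and the Hist2 median 0.62, and from pacSC to rST they are -0.24 and -1.66.

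From pacSC to rST fewer members changed: 13 of 59 fell, near the 16.7% of all genes, and 2 rose, against 17.7%. Both rST libraries lay below both of pacSC in 24 members, against 40.4% of all genes, and above in 4, against 37.6%. The falls took in 7 of 9 Hist2 genes (median log2 change -1.66) and 4 of 46 Hist1 genes (median -0.24). Beside Hist1h2ba they included Hist1h3f, an H3 gene, at 16.7 and 7.71 FPKM in pacSC, with 1.18 and 0.994 in rST (log2 change -2.57, SE 0.50, adjusted p = 0.00931), and Hist1h4h, an H4 gene, at 407.9 and 225.7 against 86.5 and 51.8 (log2 change -2.16, SE 0.48, adjusted p = 0.0133). Hist1h4h was the H4 gene with the highest pacSC level, and its plpSC values (343.3 and 782.5) overlap those of pacSC. The rises were Hist1h2bp, an H2B gene, from 24.9 and 33.3 to 83.1 and 91.4 FPKM (log2 change 1.56, SE 0.28, adjusted p = 0.00764), and Hist1h3a, from 10.6 and 6.64 to 19.8 and 17.4 (log2 change 1.05, SE 0.30, adjusted p = 0.0306). Both genes had been higher in priSG-A and plpSC than in pacSC, and Hist1h2bp, with 132.9 and 144.8 FPKM in priSG-A and 105.4 and 166 in plpSC had rST values below all 4 of these but far above those of pacSC. This step leaned on rST replicate 2: without it limma called none of the members (13 lower and 3 higher at an unadjusted p under 0.05) and 1 gene in each direction in the whole table, and without pacSC replicate 1 there were 7 falls (11.9% of members, against 6.36% of all genes).

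Read over the 3 steps, the members fell into a few courses. The most common, with 27 members, was a fall at the first and second steps and no call at the third. A fall at the second step alone was called in 14. Hist1h3f, Hist2h3b, Hist2h3c1 and Hist2h3c2-ps, all H3 genes, fell to plpSC and again from pacSC to rST, and Hist1h4h, Hist2h2aa1, Hist3h2a and Hist3h2bb-ps at the last step alone. Hist1h2bh, an H2B gene, was the one member to fall at every step. No step was called for Hist1h2bb, Hist1h2br and Hist1h4b, although all 3 were lower in pacSC and rST than in priSG-A and plpSC together.

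The genes that act on clustered histones were taken as lists written from textbook knowledge with earlier results of these data known, and are described in the comparison of priSG-A and plpSC with pacSC and rST, in which 52.7% of all genes were lower and 27.2% higher. Of 7 transcription genes, 6 fell and none rose (0 also at an unadjusted limma p under 0.05), among them Npat, the coactivator of histone locus bodies (log2 change -1.06, adjusted p = 0.000915), Hinfp, the H4 promoter factor (-1.80, adjusted p = 9.31e-05) and Casp8ap2, which encodes FLASH (-2.11, adjusted p = 0.000113). Of 16 S phase genes, 14 fell, such as Mcm5 of the replicative helicase (-2.67) and Tk1, thymidine kinase (-2.85), at a list median of -1.74. Their summed FPKM reached 523 and 475.7 in priSG-A, 276.2 and 353 in plpSC, 230.2 and 187.4 in pacSC, with 156.2 and 151.2 in rST. Within plpSC, within pacSC and within rST the library with more S phase mRNA was also the one with more clustered histone mRNA. Within priSG-A it was the one with less (median of the members that are neither testis forms nor pseudogenes 264.9 and 276.9 FPKM, against 17.6 and 13.5 in rST). The 3′ end processing and decay list moved both ways, with 3 of 14 genes higher and 6 lower, and Slbp, whose product binds the stem-loop, had a change of -0.38 (adjusted p = 0.0559), with a fall of 1.04 from pacSC to rST (adjusted p = 0.012). Of 10 histone chaperone genes, 8 fell and 2 rose, the latter being Nasp, a chaperone of H1 and of H3-H4 (0.85, adjusted p = 0.00951), and Chaf1a, a subunit of CAF-1 (0.71, adjusted p = 0.0188). Of 8 histone genes outside the clusters, listed together as replication-independent, 5 fell, including H2afx (-1.81, adjusted p = 0.000765). Whether each of them is replication-independent in these cells was not tested. H3f3a had a change of -0.25 (adjusted p = 0.29) and H2afz, which encodes H2A.Z, of 0.33 (adjusted p = 0.138). Summed H3f3a and H3f3b, which both encode H3.3, stood at 0.360 and 0.392 times the clustered H3 sum (pseudogene included) in priSG-A, then 1.39 and 0.761 in plpSC, 2.57 and 3.06 in pacSC, with 4.49 and 4.99 in rST, with no overlap between the stages.

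Transcript form was set beside the changes as a description. Of the members above the filter, 15 have a GENCODE M21 model that runs at least 200 bases past the stem-loop, 25 a shorter one and 19 none with the core. Their median log2 changes between the earlier and later pairs of stages were -2.75, -3.24 and -3.14, with 15, 24 and 16 genes lower. In the stem cell lists, circular RNAs whose span holds a member's locus numbered 6 and 2 of the 12266 and 25415 listed after RNase R, against 0 of 2601 and 0 of 3578 without it, and none began and ended inside a member.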

How the data were processed

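The FPKM values, with a lower and an upper bound per gene, are the authors' deposited values, per the file headers. TopHat2 2.0.6, BWA, Cuffdiff and mm9 are listed, with no role given, per the submitters' processing notes. The circular RNA lists hold 1 deposited count of junction reads per circle, per the file headers. Strand, poly(A) selection and the handling of reads with several matches are not given in the sources used here. Entries sharing a symbol were summed (23021 entries, 22552 symbols, 67 member entries, 62 members). Gene models of 45 of the 67 entries span under 500 bases, where FPKM depends strongly on the assumed fragment length.

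Genes reaching 1 FPKM in 2 or more of 8 libraries were tested with limma 3.58.1 (R 4.3.3, eBayes with trend, 4 stage means, 4 residual degrees of freedom, two-sided) on log2(FPKM + 1), a scale that understates changes of low genes. No batch is given. Effective fragments were computed from the bounds read as 2 SD, which for some members hold more than counting error. Hist1h4n, at up to 963.2 FPKM, had at most 404.9 effective fragments. Hist1h4j, with the same span of 312 bases and up to 1044 FPKM, had up to 6059. Shares of effective fragments are therefore not exact shares of fragments. Python 3.11.15, numpy, pandas and matplotlib served for the rest. Named members were the testis forms, the 3 highest of each family, the 3 largest called rises and falls per comparison, and the 5 most like Hist1h2ba. The members, lists and tests were chosen with earlier results of these data known. Alternatives were another pseudocount, other filters, other scalings, the replicate block, only the libraries compared and leaving out each library. The fit was tested on simulated data.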

Additional observations from a re-analysis of the deposited data

How the results depend on the processing

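The count of members lower in pacSC and rST than in priSG-A and plpSC was 54 or 55 under every alternative run, and the single rise was kept. Scaling moved the median of all genes in that comparison from -0.48 to -0.20 with quantile normalization and 0.04 with centring, against a member median of -3.23 and -2.56. Hist1h2ba in that comparison, -0.17 and not called, became 0.061 with quantile normalization, 0.352 with centring, 0.542 with both plpSC libraries left out (an alternative chosen after seeing the data), and -0.40 (without plpSC replicate 1) to 0.0611 with single libraries left out, positive without the second replicate of priSG-A (0.0278), of plpSC (0.0611) and of rST (0.000826). Hist2h2aa1, at 0.029, became -0.216 with quantile normalization, -0.0299 with both plpSC libraries left out, and -0.0898 to 0.148 with single libraries left out (-0.000916 without the first priSG-A library, -0.0253 and -0.0196 without the second of plpSC or pacSC, -0.0898 without the first of rST), and its first step became 0.0659 with centring.

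Among the step counts, rises from priSG-A to plpSC numbered 1 with a pseudocount of 0.1, with no filter, with only the libraries compared and with the replicate block, and 0 to 3 with single libraries left out, where falls ranged from 18 to 38 (30.5% to 64.4% of members, with 28% to 47.7% of all genes). Rises from plpSC to pacSC numbered 1 with a pseudocount of 0.1, with no filter and with the replicate block, 5 with centring and 0 with only the libraries compared (3 at an unadjusted limma p under 0.05), and 0 to 3 with single libraries left out, where falls ranged from 26 to 47 (44.1% to 79.7%, with 5% to 36.8% of all genes). Rises from pacSC to rST numbered 0 with quantile normalization (1 unadjusted) and 0 to 2 with single libraries left out, where falls ranged from 0 to 16 (up to 27.1%, with up to 26.6% of all genes). The cause of these moves was not tested. Replicate numbers did not pair the libraries: the deviations of same-numbered libraries correlated between -0.314 and 0.38, and the block gave 32, 42 and 13 falls at the 3 steps, within 1.5 times, while the rises at the first and second steps moved as given. Entries that share a symbol could not be kept apart, since their order differs between files, and that alternative was not run. Depth limits the latest stage, where the median member rested on 104.5 effective fragments in the shallower library.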
